A study of Mus musculus with 69 samples.

Results

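The 10 genes described here mark astrocytes, the star-shaped support cells of the brain, and were taken from the tables by their symbols. They were Slc1a2, Slc1a3, Gja1, Aqp4, Aldh1l1, Aldoc and S100b, which resting astrocytes express and which are called homeostatic members below, and Gfap, Serpina3n and Clu, which are called reactive members because astrocytes raise them after injury or inflammation. All 10 were found in each of the 3 count tables, among 54532 gene rows in the agonist table and the microglia table and 54429 in the inhibitor table, and all 10 passed the filter on low counts in every experiment. The study asked what the RNA sensor TLR7 does in the mouse brain, and measured messenger RNA from its 3′ ends in 69 libraries. In the agonist experiment, wild-type (WT) hippocampus was taken from males of 12.12 months and females of 9.60 months that had received saline or gardiquimod, a small-molecule TLR7 agonist, with 7 libraries in each of the 4 groups. Sex and age therefore cannot be told apart in that experiment. In the inhibitor experiment, all 17 hippocampal libraries, controls included, came from mice of the genotype PSUK+, which the labels do not explain, and the TLR7 inhibitor is not named. It had 3 control females, 3 control males, 5 inhibitor females and 6 inhibitor males, with ages of 5.50, 6.06 or 6.85 months (1 of these was given without a unit). Ages were not balanced between the groups. Control males were all of 5.50 months, inhibitor males of 5.50 or 6.06, and control females of 5.50 or 6.85. Inhibitor females were of all 3 ages. In the third experiment, primary microglia from pups of postnatal days 1 to 3, either WT or TLR7:-/- (KO below), received the solvent DMSO or myelin, with 3 libraries in each of 8 groups of sex, genotype and treatment. The labels tie no microglial library to a separate culture or animal, so p-values there measure the spread between these libraries, which may be technical.

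Astrocytes take up glutamate and potassium after neurons fire, share metabolites with neurons, cover blood vessels with their endfeet and couple to one another through gap junctions. When the tissue is injured, infected or inflamed they become reactive: they build up intermediate filaments and secrete proteins such as protease inhibitors and complement regulators, through signals that include the gp130 receptors and the transcription factor STAT3. TLR7 itself is best known from microglia and other immune cells.

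The libraries held 14332532 to 23477906 counts in the agonist experiment, 14377831 to 21033158 in the inhibitor experiment and 15277642 to 21275491 in the microglia experiment. The targeted gene followed its labels: Tlr7, in counts-per-million units (CPM, the count over the library total), lay between 166 and 202 CPM in the 12 WT microglial libraries and between 1.20 and 2.68 CPM in the 12 KO libraries. Irf7, an interferon-response transcription factor downstream of TLR7, rose with gardiquimod by 1.67 ± 0.27 on the log2 scale in males (± SE here and below; adjusted p = 0.00815) and by 1.60 ± 0.26 in females (adjusted p = 0.0121). The labels give nuclear RNA for all 69 libraries. They also name microglia as the RNA source in the protocol text of all libraries, although 45 are labelled hippocampus. The hippocampal libraries carried the markers of whole tissue: the 10 neuronal markers summed to 11552 to 15257 CPM and the 9 microglial markers to 253 to 536 CPM. Microglial libraries had 3764 to 5749 CPM of the same 9 microglial markers. In 2 libraries labelled male inhibitor, Xist, a transcript of female cells, was at 11.1 and 2.90 CPM, and the members' male and interaction values are given below also without them. Xist was also at 0.919 to 1.94 CPM in the male KO microglial libraries, against 0 to 0.126 CPM in the male WT ones. What this means for the comparisons of KO with WT males was not tested.

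The start regions of Gfap, Serpina3n and Slc1a3 are shown. Gfap and Serpina3n are reactive members whose fold changes differed in sign in males of both hippocampal experiments, neither past the test. Clu, which had the sign of Gfap in those males, had no window matched. Slc1a3 is a homeostatic member with the same motif as Gfap. Each is 270 bases and ends 19 bases after the gene's start in RefSeq on GRCm38.p6, printed 5′ to 3′ along the gene's own strand, and capitals mark TTCNNNGAA, the palindromic core that STAT factors bind.

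Gfap: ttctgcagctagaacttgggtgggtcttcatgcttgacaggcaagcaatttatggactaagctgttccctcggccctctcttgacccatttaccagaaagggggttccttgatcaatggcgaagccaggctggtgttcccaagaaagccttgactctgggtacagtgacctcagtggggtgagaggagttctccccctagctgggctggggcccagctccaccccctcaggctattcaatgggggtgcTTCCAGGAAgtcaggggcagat

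Serpina3n: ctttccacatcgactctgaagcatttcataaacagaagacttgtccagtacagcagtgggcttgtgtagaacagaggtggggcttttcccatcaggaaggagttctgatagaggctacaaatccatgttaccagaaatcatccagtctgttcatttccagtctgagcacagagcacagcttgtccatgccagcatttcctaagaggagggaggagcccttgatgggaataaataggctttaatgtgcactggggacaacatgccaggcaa

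Slc1a3: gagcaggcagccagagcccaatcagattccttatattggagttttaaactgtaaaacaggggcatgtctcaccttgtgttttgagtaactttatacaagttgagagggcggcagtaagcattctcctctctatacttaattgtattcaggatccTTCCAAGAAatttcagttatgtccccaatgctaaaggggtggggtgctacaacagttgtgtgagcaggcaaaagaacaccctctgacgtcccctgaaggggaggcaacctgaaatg

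The Gfap window lies at chr11:102897181-102897450 on the minus strand, and its motif, TTCCAGGAA, begins 2 bases before the start. The Slc1a3 window lies at chr15:8710788-8711057 on the minus strand, and its motif, TTCCAAGAA, begins 96 bases before the start. The Serpina3n window, at chr12:104406458-104406727 on the plus strand, held none of these letters. RefSeq windows were matched for 8 members, 9 windows in all because Aldoc had 2. The motif, which reads the same on both strands, was found in 3 of the 9 windows of 300 bases. These were the windows of Gfap and Slc1a3 and the second of Aldoc. Of all 32851 windows of that length, 8.3% held the motif. Gfap (ENSMUSG00000020932) spans 102887336 to 102900912 of chromosome 11 on GRCm38, so that its annotated gene body extends upstream of the RefSeq start used here. Serpina3n (ENSMUSG00000021091) spans 104406729 to 104414329 of chromosome 12, and Slc1a3 (ENSMUSG00000005360) spans 8634124 to 8710764 of chromosome 15. All 10 members are protein-coding genes.

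Because the kit gives about 1 read per transcript end, CPM values were compared between genes without dividing by length. In the 28 agonist libraries Slc1a2, the main glutamate transporter of the forebrain, had the highest level at 2560 to 5856 CPM, above every value of the next gene. Aldoc, the astrocytic form of the glycolytic enzyme aldolase, Clu, a secreted chaperone, Gfap, the intermediate filament protein, and Slc1a3, the other astrocytic glutamate transporter, followed between 763 and 2134 CPM with ranges that overlapped from neighbour to neighbour. Gja1, the gap junction protein connexin 43, Aqp4, the water channel of the endfeet, and S100b, a calcium-binding protein, formed the next set between 152 and 364 CPM, again overlapping. Aldh1l1, a folate-pathway enzyme used as a pan-astrocyte marker, lay at 67.3 to 114 CPM, and Serpina3n, a secreted protease inhibitor, at 24 to 51.4 CPM, with no overlap with each other or with the genes above them. The astrocyte label of the set therefore had its defining genes present in every hippocampal library.

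**Figure D1:**
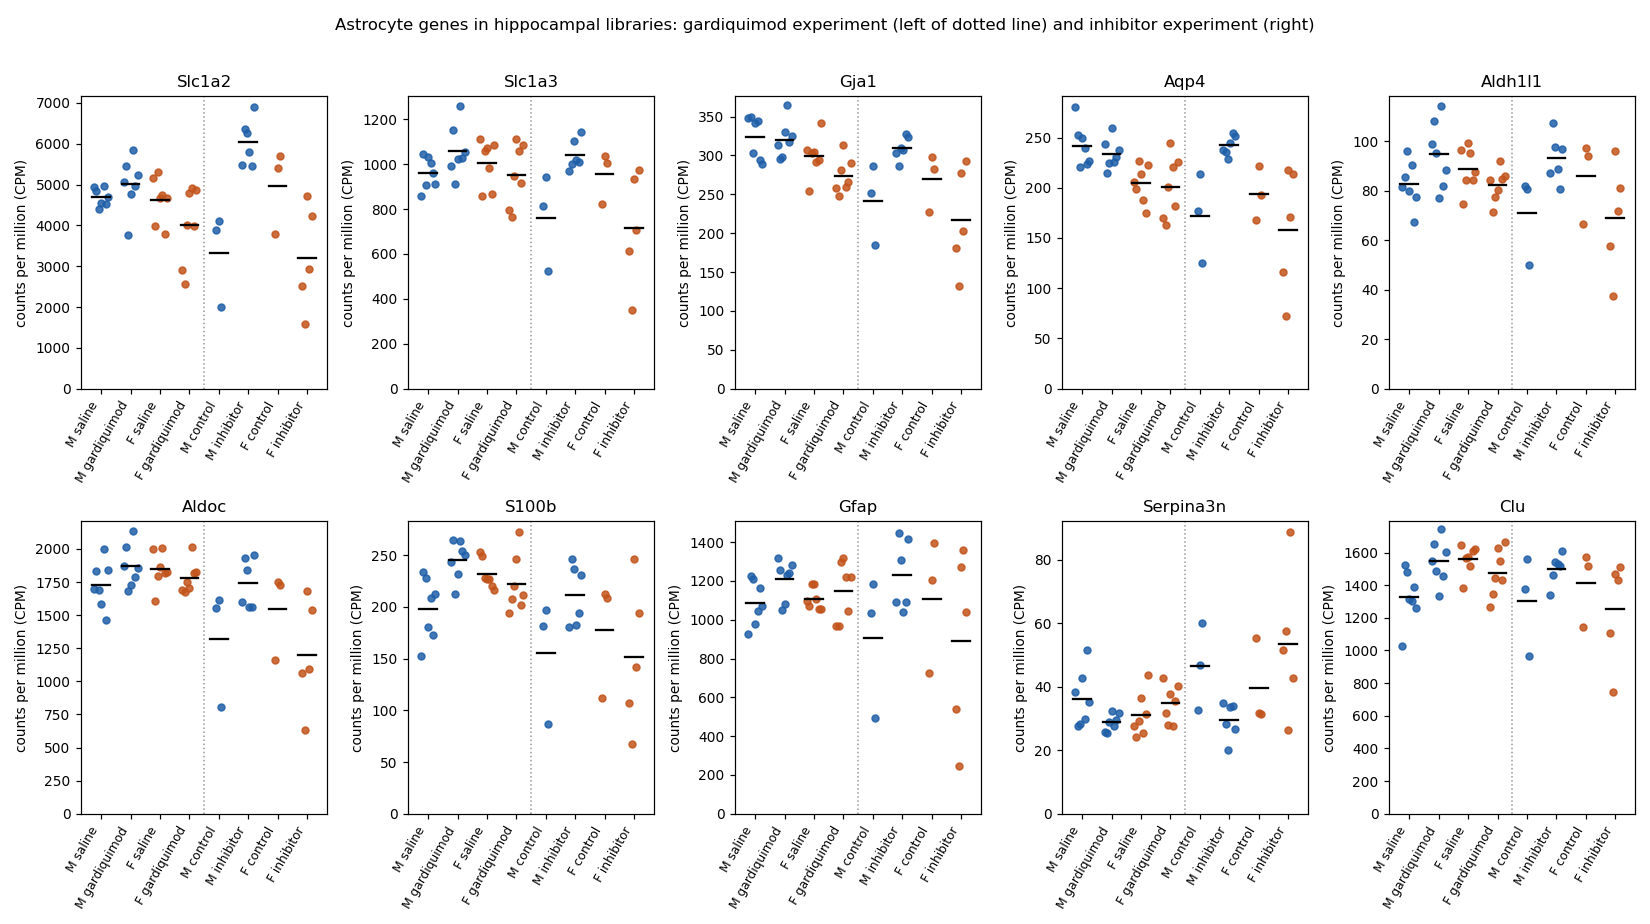
CPM (vertical axis, starting at 0) of each member in every hippocampal library, by group, with the agonist experiment left of the dotted line and the inhibitor experiment right of it; each point is 1 library, blue for males and orange for females, and the bar is the group mean. Agonist groups overlap for every member, while the inhibitor experiment spreads far more, from 1592 to 6898 CPM for Slc1a2 and from 245 to 1447 CPM for Gfap.

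No member passed edgeR's test for a change with gardiquimod in either sex. In males the members had a median log2 fold change of 0.16 with 8 of 10 above 0, and in females a median of -0.11 with 2 of 10 above 0. Across all 17218 genes tested the medians were -0.01 and 0.01. The count of members called was 0 in males, where 0.221% of genes were called, and 0 in females, where 0.0232% were called. An unadjusted p under 0.05 was reached by 4 of 10 members in males, beside 15.8% of all genes tested, and by 1 in females, beside 6.06%. DESeq2 called 1 member in males, S100b, and 0 in females, and limma-voom called 0 in both. In bulk tissue, fewer astrocytes and less RNA per astrocyte cannot be told apart in any of these values. The share of counts from mitochondrial genes had the same order as the members' medians, with a median of 7.92% in saline and 10.8% in gardiquimod males and of 8.58% in saline and 8.11% in gardiquimod females, all with overlapping ranges. The 7 choroid plexus markers summed to a median of 373 CPM in saline males and 4197 CPM in gardiquimod males, and of 3216 and 5562 CPM in saline and gardiquimod females, with overlapping ranges. With the mitochondrial share as a covariate, an alternative chosen after seeing the data, S100b in males was at 0.22 (adjusted p = 0.319), Gfap at 0.10 and Serpina3n at -0.16, and with Ttr, the main choroid plexus gene, as a covariate they were at 0.24 (adjusted p = 0.575), 0.11 and -0.14.

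Among the glutamate transporters, Slc1a2 ran from 4404 to 4974 CPM (median 4704) in saline males, from 3778 to 5856 (median 5055) in gardiquimod males, from 3802 to 5298 (median 4671) in saline females and from 2560 to 4913 (median 4006) in gardiquimod females. The lowest 2 values belonged to gardiquimod females and the highest to gardiquimod males, and all 4 groups overlapped. The log2 fold change of Slc1a2 was 0.12 ± 0.13 in males (adjusted p = 0.653) and -0.25 ± 0.13 in females (95% interval -0.51 to 0.01, adjusted p = 0.795). Slc1a3 had 0.17 ± 0.09 in males and -0.12 in females, again with overlapping groups.

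For contact and transport at the endfeet, Gja1 ran from 289 to 350 CPM in saline males, 295 to 364 in gardiquimod males, 254 to 342 in saline females and 248 to 314 in gardiquimod females. Its female log2 fold change of -0.18 ± 0.06 had a 95% interval of -0.31 to -0.04, and it is the 1 member with an unadjusted p under 0.05 in females, but its adjusted p was 0.791 and the groups overlapped. Aqp4 stayed within 163 to 281 CPM over the 4 groups, with log2 fold changes of -0.02 ± 0.08 in males and -0.07 in females.

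The soluble astrocyte proteins S100b, Aldh1l1 and Aldoc had positive fold changes in males and negative ones in females, none past the test. S100b had 152 to 234 CPM (median 208.5) in saline males and 212 to 265 CPM (median 250.5) in gardiquimod males, against 216 to 254 (median 227) and 194 to 272 (median 212) in saline and gardiquimod females. Gardiquimod males sat in the upper part of the range, and overlapped the saline males between 212 and 234 CPM. The male log2 fold change of S100b was 0.34 ± 0.10 (95% interval 0.13 to 0.54), with an adjusted p of 0.104 by edgeR and 0.0485 by DESeq2. Leaving out the third library of the saline males gave 0.38 with an adjusted p of 0.0421, and these were the only 2 of 23 alternatives in which it was called. Aldh1l1 ran from 67.3 to 96.1 CPM in saline males and from 76.9 to 114 in gardiquimod males, with a male log2 fold change of 0.23 ± 0.09 (adjusted p = 0.215) and a female one of -0.15 ± 0.09. Aldoc had 0.14 ± 0.08 in males and -0.10 in females.

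The 3 reactive members did not share a direction. Gfap lay between 926 and 1226 CPM (median 1069) in saline males, 1051 and 1315 (median 1239) in gardiquimod males, 1053 and 1186 (median 1098) in saline females and 966 and 1320 (median 1218) in gardiquimod females. The groups overlapped in both sexes, and its log2 fold change was 0.18 ± 0.09 in males (adjusted p = 0.326) and 0.00 ± 0.09 in females (adjusted p = 0.997). Serpina3n lay between 27.5 and 51.4 CPM (median 35.3) in saline males and between 25.3 and 32.4 (median 29.1) in gardiquimod males, so the treated males lay from just below the lowest saline male to inside the lower part of the saline range. Its male log2 fold change was -0.30 ± 0.12 (95% interval -0.56 to -0.05, adjusted p = 0.232). In females Serpina3n ran from 24 to 43.8 CPM with saline and from 27.8 to 42.8 with gardiquimod, overlapping throughout, at 0.11 ± 0.12 (adjusted p = 0.869). Clu had 1027 to 1523 CPM (median 1317) in saline males and 1335 to 1741 (median 1547) in gardiquimod males. Its male log2 fold change of 0.25 ± 0.09 (95% interval 0.07 to 0.42) had an adjusted p of 0.169, and its female one was -0.13 ± 0.09. No other member of the Serpina3 family came near Serpina3n in abundance: the next, Serpina3g, averaged 0.948 CPM in these libraries against 32.7 for Serpina3n.

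**Figure D2:**
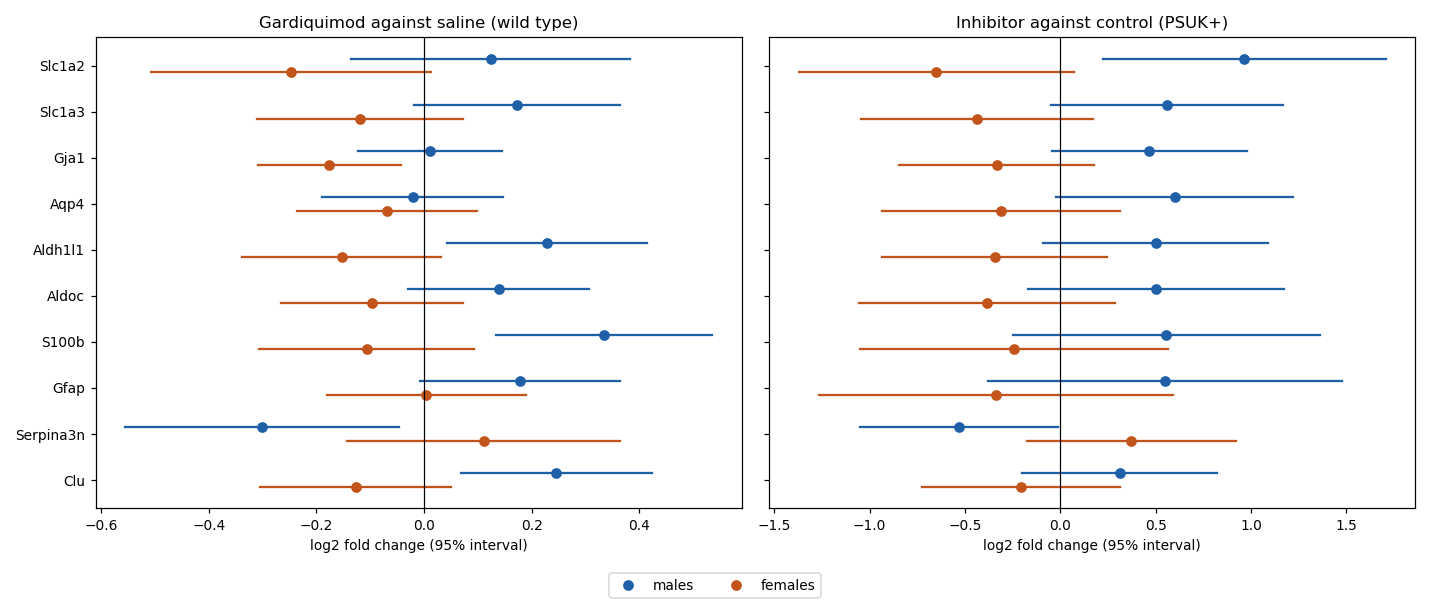
Log2 fold change of each member (horizontal axis) with its 95% interval, for gardiquimod against saline in wild-type hippocampus (left) and the TLR7 inhibitor against control in PSUK+ hippocampus (right), with males in blue and females in orange; the horizontal scales of the panels differ. Male points lie right of female points for every member except Serpina3n in both panels, and no member passed the test in any of the 4 contrasts.

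Whether the response to gardiquimod differed between the older males and the younger females was tested directly, as an interaction. Sex and age cannot be told apart in this test or between the saline groups. The female minus male difference was below 0 for 9 of 10 members, with a median of -0.26, and none was called by edgeR, DESeq2 or limma-voom, although 7 of 10 had an unadjusted p under 0.05. In the same test 0.00581% of all genes were called and 16.2% had an unadjusted p under 0.05. S100b had the lowest value, -0.44 ± 0.14 (95% interval -0.73 to -0.16, adjusted p = 0.155). Slc1a2 had -0.37 ± 0.18 (adjusted p = 0.298), and Serpina3n was the exception at 0.41 ± 0.17 (adjusted p = 0.247). Averaged over the sexes, the members' log2 fold changes ran from -0.10 for Serpina3n to 0.11 for S100b. In that average 0 members were called by any of the 3 tools and 0 had an unadjusted p under 0.05, beside 0.215% of all genes called by edgeR. Between saline females and saline males, 0 members were called by any tool, 3 had an unadjusted p under 0.05 and 0.43% of genes were called. Aqp4 was -0.22 ± 0.08 (adjusted p = 0.383), and Clu was 0.25 ± 0.09 (adjusted p = 0.333), in females relative to males.

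Other astrocyte genes were followed from lists of other homeostatic genes and of reactive genes. Of 30 other homeostatic astrocyte genes, none was called with gardiquimod in males or females by edgeR. An unadjusted p under 0.05 was reached by 13 of them in males and 9 in females, beside 15.8% and 6.06% of all genes tested. DESeq2 called 5 in males and 0 in females, and limma-voom 2 in males (Gjb6 and Slc7a10) and 0 in females. All 30 had a positive fold change in males (median 0.15) and 2 of 30 did in females (median -0.15), and the interaction had a median of -0.30 with 22 genes at an unadjusted p under 0.05 and 0 called by edgeR and limma-voom, but 6 by DESeq2. Between saline females and saline males 2 of these genes were higher: F3, coagulation factor III, by 0.34 ± 0.08 (adjusted p = 0.0229) and Gjb6, connexin 30, by 0.47 ± 0.10 (adjusted p = 0.0233).

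Of the 11 reactive genes typical of lipopolysaccharide, edgeR called 2 as higher with gardiquimod in males, where the list had a median log2 fold change of 0.53 and 8 genes at an unadjusted p under 0.05, and 1 in females, where the median was 0.10 and 3 reached that p. The counts of this paragraph are to be read beside all genes tested. Of those, 0.221% were called and 15.8% reached that p in males, and 0.0232% and 6.06% in females. H2-T23 and H2-D1, both class I histocompatibility genes, rose in males by 0.68 ± 0.12 (adjusted p = 0.00966) and 0.56 ± 0.11 (adjusted p = 0.0262). H2-D1 also rose in females by 0.59 ± 0.11 (adjusted p = 0.0485). Averaged over the sexes H2-D1 rose by 0.58 ± 0.08 and H2-T23 by 0.60 ± 0.09. Class I genes are expressed by many cell types, and bulk libraries do not show which cells carried the change. Of the 9 pan-reactive genes tested, the 10 of the ischaemia type, the 12 of STAT3 and gp130 signalling and the 12 of disease-associated astrocytes, edgeR called 0 in either sex with gardiquimod. An unadjusted p under 0.05 was reached by 1, 3, 1 and 3 of them in males and by 1, 0, 0 and 1 in females. The median log2 fold changes were 0.24, 0.11, 0.05 and 0.18 in males and -0.03, -0.01, 0.00 and -0.08 in females. DESeq2 called 1 of these genes, Fbln5, an extracellular matrix gene of the disease-associated list, in males, and limma-voom called 0.

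Under the TLR7 inhibitor the members' median fold changes in PSUK+ males and females lay on opposite sides of 0, the libraries of a group spread widely, and no member was called in either sex. In males the median log2 fold change was 0.53 with 9 of 10 members above 0, and in females it was -0.34 with 1 of 10 above 0, beside all-gene medians of 0.01 and -0.01. The count called was 0 in males, where 0.105% of genes were called and 2 members and 17.6% of genes had an unadjusted p under 0.05. In females 0 were called, with 0.0876% of genes called, and 0 members had an unadjusted p under 0.05, beside 11.6% of genes. DESeq2 and limma-voom also called 0 members in either sex.

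In males, 4 members separated completely. Slc1a2 was at 3888, 4099 and 1994 CPM in the 3 controls and from 5457 to 6898 CPM (median 6031) in the 6 inhibitor libraries. Aqp4 was at 177, 213 and 125 CPM against 228 to 255 (median 241). Slc1a3 was at 814, 944 and 522 CPM against 968 to 1143 (median 1013). The third control was the lowest male library for each of these genes. Gja1 separated by a hair, at 252, 286.7 and 184 CPM in the controls against 287.0 to 328 (median 308) with the inhibitor. The 4 of 10 members are to be read beside 4.01% of all genes tested that lay higher in every inhibitor male than in every control male. The log2 fold change of Slc1a2 was 0.97 ± 0.34 (95% interval 0.22 to 1.71) with an adjusted p of 0.215. Aqp4 had 0.60 ± 0.29 (adjusted p = 0.285), Slc1a3 had 0.56 ± 0.28 (adjusted p = 0.300) and Gja1 had 0.47 ± 0.24 (adjusted p = 0.301). Aldh1l1, Aldoc and S100b had log2 fold changes of 0.50, 0.50 and 0.56 with overlapping groups. Without the 2 inhibitor libraries that carried Xist, the other 4 also lay above every control for the 4 genes, and the values were 0.96 for Slc1a2 (adjusted p = 0.375), 0.59 for Aqp4, 0.57 for Slc1a3 and 0.48 for Gja1.

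The reactive members differed again in sign in males. Gfap was at 1036, 1184 and 494 CPM in the controls and from 1038 to 1447 (median 1200) with the inhibitor, at 0.55 ± 0.43 (adjusted p = 0.487). Serpina3n was at 32.8, 46.8 and 60.1 CPM in the controls and from 20.2 to 34.8 (median 31.0) with the inhibitor, at -0.53 ± 0.24 (95% interval -1.05 to -0.01, adjusted p = 0.267). The control with the lowest Gfap had the highest Serpina3n, and in both genes the groups overlapped. Clu ran from 965 to 1561 CPM in the controls and from 1341 to 1610 with the inhibitor, at 0.31. Without the libraries that carried Xist, Gfap was at 0.50, Serpina3n at -0.61 (adjusted p = 0.378) and Clu at 0.33.

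In females every member overlapped between groups. Slc1a2 was at 3796, 5400 and 5692 CPM in controls and at 2509, 1592, 4711, 2935 and 4226 with the inhibitor, at -0.65 ± 0.33 (95% interval -1.37 to 0.07, adjusted p = 0.470). The second inhibitor library was the lowest of all 17 for Slc1a2 and for Gfap. Gfap was at 727, 1205 and 1393 CPM in controls and at 542, 245, 1269, 1361 and 1041 with the inhibitor, at -0.34 ± 0.43. Serpina3n was at 55.4, 31.6 and 31.5 CPM in controls and at 51.5, 57.5, 26.3, 88.7 and 42.8 with the inhibitor, at 0.37 ± 0.25 (adjusted p = 0.579). Its highest library, at 88.7 CPM, was the fourth, whose Gfap of 1361 CPM was also high. The remaining homeostatic members had log2 fold changes between -0.44 (Slc1a3) and -0.24 (S100b), and Clu -0.20.

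Ages were not balanced across the groups of the inhibitor experiment, and age was not part of the main fit. The female minus male difference in the inhibitor response was below 0 for 9 of 10 members, with a median of -0.87. None was called by edgeR or limma-voom, beside 2.41% of all genes called, and 6 of 10 had an unadjusted p under 0.05, beside 25.4% of all genes. DESeq2 called 1, Slc1a2. Slc1a2 had -1.62 ± 0.48 (95% interval -2.65 to -0.58, adjusted p = 0.0662), Slc1a3 -0.997 (adjusted p = 0.133), Gja1 -0.80 (adjusted p = 0.147) and Gfap -0.89 (adjusted p = 0.360). Serpina3n was again the exception at 0.90 ± 0.35 (95% interval 0.15 to 1.66, adjusted p = 0.125). The interaction turned on single libraries. Without the third inhibitor female 6 members were called, among them Slc1a2 at -1.87 (adjusted p = 0.0137). Genes called in that fit numbered 2500, against 413 with all libraries. Without the first control female Slc1a2 had -1.80 (adjusted p = 0.0393) and Serpina3n 1.18 (adjusted p = 0.0495). Without the 2 male inhibitor libraries that carried Xist, 0 members were called, and the difference was -1.60 for Slc1a2 (adjusted p = 0.125), -0.84 for Gfap and 0.99 for Serpina3n. Averaged over the sexes the members lay between -0.08 and 0.16, with 0 called and 0 at an unadjusted p under 0.05 by edgeR, 0 called by DESeq2 and limma-voom, and 0.0117% of genes called. Control females and control males differed in 0 members by any tool, 0 of them at an unadjusted p under 0.05, with 0.0642% of genes called.

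The other homeostatic astrocyte genes had medians of the same sign as the members, without passing the test in either sex. Of the 30 other homeostatic genes, 29 were above 0 in males (median 0.45) and 2 in females (median -0.33), with 0 called by edgeR, DESeq2 and limma-voom and 12 and 3 at an unadjusted p under 0.05. The counts of this paragraph are to be read beside all genes tested by edgeR. Of those, 0.105% were called and 17.6% reached that p in males, and 0.0876% and 11.6% in females. In the interaction these shares were 2.41% and 25.4%. In the interaction Slc4a4, the bicarbonate transporter of astrocytes, was called at -1.43 ± 0.35 (adjusted p = 0.0415), the 1 gene of that list called by edgeR, where 16 had an unadjusted p under 0.05. Il6st, the gp130 receptor subunit, was at -0.81 ± 0.15 (adjusted p = 0.0153) and Igfbp5, a binding protein of insulin-like growth factors, at -1.21 ± 0.22 (adjusted p = 0.0129) in the interaction. In the pan-reactive, lipopolysaccharide-type and ischaemia-type lists (10, 11 and 10 genes tested) 0 genes were called with the inhibitor in either sex by any of the 3 tools, and an unadjusted p under 0.05 was reached by 2, 0 and 1 of them in males and by 0, 0 and 1 in females. In the lists of STAT3 and gp130 signalling (11 tested) and of disease-associated astrocytes (12 tested) edgeR and limma-voom also called 0 in either sex, while DESeq2 called Il6st in both sexes and Igfbp5 in males, and 4 and 1 genes in males and 1 and 1 in females had an unadjusted p under 0.05. The 10 neuronal markers had a median log2 fold change of -0.39 in males with 1 above 0, and of 0.30 in females with 9 above 0.

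The share of counts from mitochondrial genes moved with these values. It ran from 3.31% to 15.7% over the 17 libraries: 11.7, 8.41 and 3.31% in control males, 8.94 to 12.7% in inhibitor males, 4.89, 10.5 and 10.2% in control females, and 4.62, 3.49, 15.7, 7.41 and 9.41% in inhibitor females. Correlations were taken over deviations of each library from its group mean, with 100000 permutations within groups, and adjusted over the 20 relations computed, 10 members in each of 2 experiments. Over 17 libraries Slc1a2 had Pearson's r = 0.93 and Spearman's rho = 0.88 (adjusted permutation p = 6.67e-05 for r and 0.00068 for rho), and r = 0.91 without the 2 libraries farthest from the median share. Gfap had r = 0.84 and rho = 0.76 (adjusted permutation p = 0.0048 and 0.0102), and r = 0.81 without those 2. Serpina3n had r = -0.72 and rho = -0.78 (adjusted permutation p = 0.0242 and 0.0052), and r = -0.64 without those 2. The other 7 members had r from 0.85 to 0.95, so the relation was positive for 9 of 10 members and negative for Serpina3n. These correlations were computed for the members only, and whether other genes followed the share as closely was not tested. In the 28 agonist libraries Gfap had r = 0.52 and rho = 0.57 (adjusted permutation p = 0.00486 and 0.00551), S100b r = 0.69 and rho = 0.73 (0.00012 and 0.0002) and Serpina3n r = -0.55 and rho = -0.51 (0.0151 and 0.0165), and without the 2 farthest libraries these r were 0.60, 0.71 and -0.48. The other 7 members had r between -0.05 and 0.36, with no adjusted p of r under 0.05, and Aldoc passed by rho (0.44, adjusted permutation p = 0.0379). Without the 2 farthest libraries their r was higher: 0.64 for Slc1a2, 0.62 for Aldoc, 0.54 for Aqp4, 0.46 for Slc1a3 and 0.25 to 0.37 for Gja1, Aldh1l1 and Clu.

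**Figure D3:**
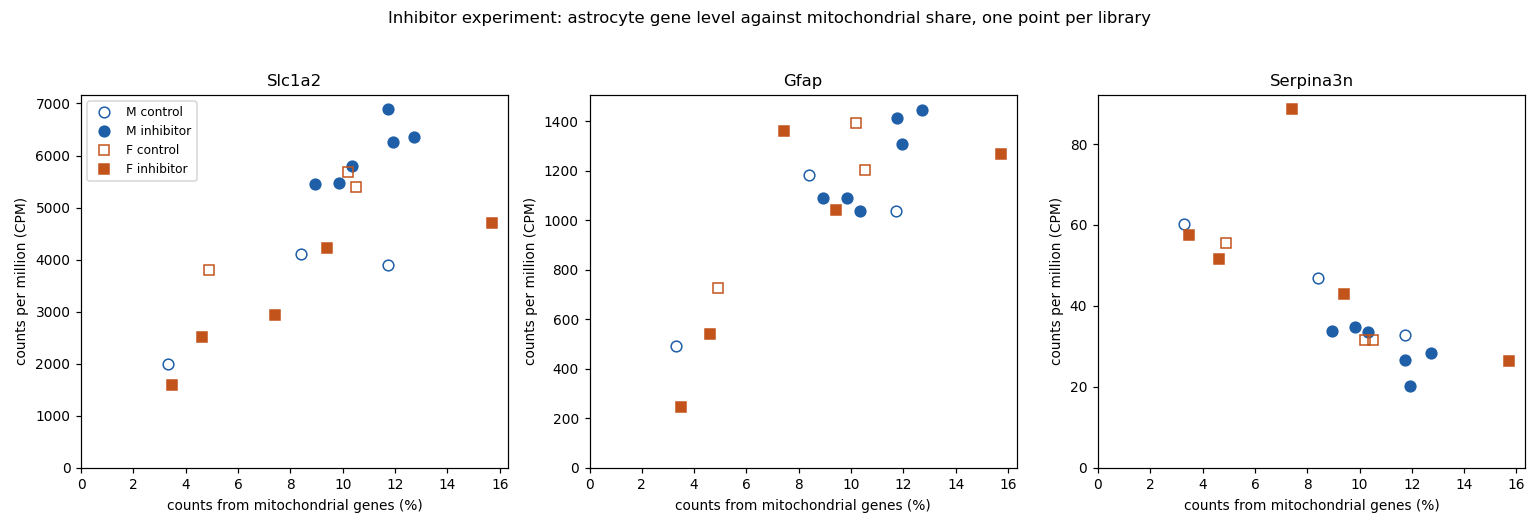
CPM of Slc1a2, Gfap and Serpina3n (vertical axes, starting at 0) against the percent of counts from mitochondrial genes (horizontal axis) in the 17 inhibitor-experiment libraries, with open symbols for controls, filled symbols for inhibitor, blue circles for males and orange squares for females. The 4 libraries under 5% have 1592 to 3796 CPM of Slc1a2, 245 to 727 CPM of Gfap and 51.5 to 60.1 CPM of Serpina3n.

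With the mitochondrial share as a covariate, an alternative chosen after seeing the data, Slc1a2 was called in both sexes, at 0.60 in males (adjusted p = 0.0443) and -0.69 in females (adjusted p = 0.00233), and in the interaction at -1.29 (adjusted p = 0.000171). Aldh1l1 was called in females at -0.35 (adjusted p = 0.0328) and in the interaction at -0.51 (adjusted p = 0.0231), as were Slc1a3 and Gja1 in the interaction at -0.73 (adjusted p = 0.0334) and -0.55 (adjusted p = 0.0373). These calls are to be read beside those of all 17128 genes tested. With this covariate 89 genes were called in males, 1081 in females and 1729 in the interaction, against 18, 15 and 413 without it. Serpina3n was then at 0.60 (adjusted p = 0.213) in the interaction, and Gfap at 0.08 in males and -0.36 in females. Without the 4 libraries under 5% of mitochondrial counts, 0 members were called, and the interaction was -1.16 for Slc1a2 (adjusted p = 0.116), -0.34 for Gfap and 1.03 for Serpina3n (adjusted p = 0.305). Choroid plexus RNA also differed between the inhibitor groups: the 7 choroid plexus markers summed to 156 to 2295 CPM in control females, 4390 to 5001 in control males, 4522 to 6221 in inhibitor females and 239 to 6434 in inhibitor males. The part of either in the members' values was not tested further.

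Across libraries, the homeostatic members ran together and Serpina3n ran apart, as a description of deviations from group means in libraries that share their preparation. In the 28 agonist libraries the 21 pairs of homeostatic members had r from 0.19 to 0.91 (median 0.61), and in the 17 inhibitor libraries from 0.92 to 0.99 (median 0.97). Gfap with the homeostatic members had 0.37 to 0.77 and 0.88 to 0.94, and Clu 0.27 to 0.76 and 0.95 to 0.97. Serpina3n with the same members had -0.56 to 0.05 and -0.67 to -0.45. The genes most like Slc1a2 over the 28 agonist libraries, among those averaging at least 10 CPM, were Ntrk2 (r = 0.96), Gpm6b (0.96), Slc4a4 (0.92), Scg3 (0.92) and Kif5c (0.91), with r of 0.96, 0.98, 0.98, 0.99 and 0.87 over the 17 inhibitor libraries. Those most like Gfap were Eif4ebp2 (0.93), Gm13111 (0.90), Sowaha (0.88), Egln1 (0.87) and Homer2 (0.87), at 0.78, 0.90, 0.80, 0.84 and 0.84 over the inhibitor libraries. Among those most like Serpina3n were Sez6l2 (0.87), Olfml2b (0.87), Gria1 (0.86) and Galnt17 (0.86), at 0.70, 0.72, 0.72 and 0.79.

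In the microglial cultures the members lay below their levels in WT hippocampus, by amounts that differed from gene to gene. Slc1a2 reached at most 8.13 CPM against at least 2560 in hippocampus, Gfap at most 15.7 against at least 926, Clu at most 46.4 against at least 1027 and Aldoc at most 21.4 against at least 1461. Serpina3n came closest, at up to 17.9 CPM against at least 24 in hippocampus. The 7 homeostatic members together summed to 28 to 60 CPM in a microglial library. Aldh1l1 in DMSO cultures, at 20.4 to 24.2 CPM, stood nearer to its hippocampal level than the other homeostatic members did. Aqp4 ran from 0.126 to 4.27 CPM and Gja1 from 0 to 2.82 CPM, where the limits of counting are close.

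Myelin changed Aldh1l1, S100b and Aldoc in all 4 combinations of sex and genotype, in every one of the 15 alternatives run for each. Aldh1l1 was at 21.7, 21.0 and 21.9 CPM in male WT DMSO libraries and 3.94, 5.92 and 5.06 with myelin, and at 24.2, 22.7 and 21.8 against 4.75, 7.81 and 5.70 in female WT. In KO cultures it was at 21.4, 21.0 and 21.8 against 5.63, 4.21 and 5.64 in males, and at 22.4, 23.3 and 20.4 against 3.70, 3.91 and 5.06 in females. No myelin library reached a DMSO library in any of the 4. With 3 against 3 libraries, 47.1 to 49.6% of all genes tested also did not overlap in these comparisons. Aldh1l1 fell, with log2 fold changes of -2.04 ± 0.13 (adjusted p = 1.64e-19) in male WT, -1.87 ± 0.12 (4.82e-19) in female WT, -2.003 ± 0.12 (1.15e-19) in male KO and -2.33 ± 0.13 (9.05e-22) in female KO. S100b went the other way, from 0.684, 1.17 and 1.14 CPM to 6.33, 4.47 and 5.18 in male WT and from 1.28, 0.349 and 1.4 to 6.19, 4.71 and 5.82 in female WT. Every myelin library lay above every DMSO library in these and in both KO groups. S100b rose by 2.49 ± 0.27 (adjusted p = 5.91e-11) in male WT, 2.50 ± 0.26 in female WT, 1.67 ± 0.24 in male KO and 2.97 ± 0.26 in female KO. S100b overlaps Dip2a on the opposite strand, and no source used here states whether counting used strand. The log2 fold changes of Dip2a with myelin were 0.11 to 0.18. Aldoc was between 16.2 and 21.4 CPM in the 12 DMSO libraries and between 9.73 and 17.2 CPM in the 12 myelin libraries, and within each sex and genotype the groups did not overlap. Aldoc fell, with log2 fold changes of -0.53 ± 0.12 (adjusted p = 0.000476) in WT males, -0.39 ± 0.12 (0.00661) in WT females, -0.67 ± 0.12 (2.35e-05) in KO males and -0.55 ± 0.11 (0.000178) in KO females. Markers of other cells moved with myelin too: the 9 oligodendrocyte markers summed to 191 to 313 CPM with DMSO and 510 to 871 with myelin, and the neuronal markers to 2.2 to 5.2 and 4.7 to 10.5 CPM. Their part in the members' values was not tested.

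Of the members, 3 were called with myelin in male WT (39.3% of genes called), 5 in female WT (40.4%), 4 in male KO (38.2%) and 5 in female KO (41.2%), so the members' shares of 3 to 5 in 10 lay near those of all genes. Slc1a2 rose in 3 of the 4: by 0.78 ± 0.20 (adjusted p = 0.000956) in female WT, 0.81 ± 0.22 (0.00189) in male KO and 1.07 ± 0.20 (8.88e-06) in female KO, with 0.36 ± 0.18 (0.112) in male WT. Among the reactive members, Gfap was at 2.95, 1.86 and 2.31 CPM in female WT with DMSO and 5.12, 15.7 and 4.46 with myelin, and rose by 1.87 ± 0.59 (adjusted p = 0.0176). The second myelin library stood far above the others, and without it the value was 1.05 (adjusted p = 0.184). The call was also lost without the second DMSO library (1.73, adjusted p = 0.0638) or the third (1.86, adjusted p = 0.0534), and held in 11 of 15 alternatives. Serpina3n was at 14.9, 8.26 and 5.83 CPM in female KO with DMSO and 4.16, 4.40 and 3.84 with myelin, and fell, at -1.15 ± 0.29 (adjusted p = 0.00436). Every myelin library lay below the DMSO libraries, and the call was lost when only the groups compared were fitted (adjusted p = 0.0627). In male WT the value was -0.58 ± 0.25 (adjusted p = 0.0822 by edgeR, 0.0401 by DESeq2 and 0.0330 by limma-voom).

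Several astrocyte genes were lower in male KO than in male WT microglial libraries. With DMSO, 5 members were called in males, 4 lower and 1 higher in KO (20.9% of genes called), and 0 in females (11.9% called, 1 member at an unadjusted p under 0.05, 0 by DESeq2 and limma-voom). With myelin, 3 members were lower in male KO (20.6% of genes called), and 1 in female KO (7.28%). Slc1a2 was at 5.29, 5.70 and 6.64 CPM in male WT DMSO libraries and 3.37, 1.76 and 1.70 in male KO, and at 8.13, 7.55 and 5.81 against 3.80, 4.16 and 3.67 with myelin. KO and WT males did not overlap in either, and Slc1a2 was lower in KO at -1.27 ± 0.21 (adjusted p = 3.52e-06) with DMSO and -0.83 ± 0.19 (adjusted p = 0.000721) with myelin. Of all genes tested, 38.7% with DMSO and 35.3% with myelin also had no overlap between KO and WT males. Serpina3n was at 17.9, 16.8 and 17.1 CPM in male WT DMSO libraries and 8.33, 4.28 and 3.73 in male KO. These groups did not overlap either, and Serpina3n was lower in KO at -1.57 ± 0.27 (adjusted p = 0.000395) with DMSO and at -1.17 ± 0.29 (adjusted p = 0.00679) with myelin. Slc1a3 was at 7.84, 8.41 and 7.14 CPM in male WT DMSO libraries and 7.29, 3.11 and 2.08 in male KO. These groups overlapped, and Slc1a3 was lower in KO at -0.81 ± 0.28 (adjusted p = 0.0447) with DMSO, called in 8 of 15 alternatives, and at -1.17 ± 0.28 (adjusted p = 0.00515) with myelin. Gja1 was at 1.43, 1.36 and 0.885 CPM against 0.368, 0 and 0.253, and was lower in KO at -2.45 ± 0.66 (adjusted p = 0.00733) from counts close to the limit of detection. With DMSO the Slc1a3 call was lost without any 1 of the 3 WT libraries or without the second or the third KO library, at -0.87 to -0.51 (adjusted p 0.0668 to 0.177). S100b, at 0.684, 1.17 and 1.14 CPM in WT and 1.72, 2.52 and 1.26 in KO, was the member higher in male KO with DMSO, by 0.98 ± 0.30 (adjusted p = 0.016). Those groups did not overlap, and the call was lost without the first WT library (0.77, adjusted p = 0.112) or the second KO library (0.66, adjusted p = 0.196) and with limma-voom (adjusted p = 0.0629). Clu was at 15.8, 9.71 and 16.0 CPM in male WT DMSO libraries and at 6, 2.70 and 2.21 in male KO, at -1.83 ± 0.79 (adjusted p = 0.118 by edgeR and 0.0320 by DESeq2). Aldh1l1 with myelin was the member lower in female KO, at -0.49 ± 0.15 (adjusted p = 0.0313). Those groups overlapped and it was called in 9 of 15 alternatives. The call was lost without the second or the third WT library (-0.27 and -0.52, adjusted p = 0.408 and 0.0564) and without the first or second KO library (-0.40 and -0.44, adjusted p = 0.172 and 0.122).

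**Figure D4:**
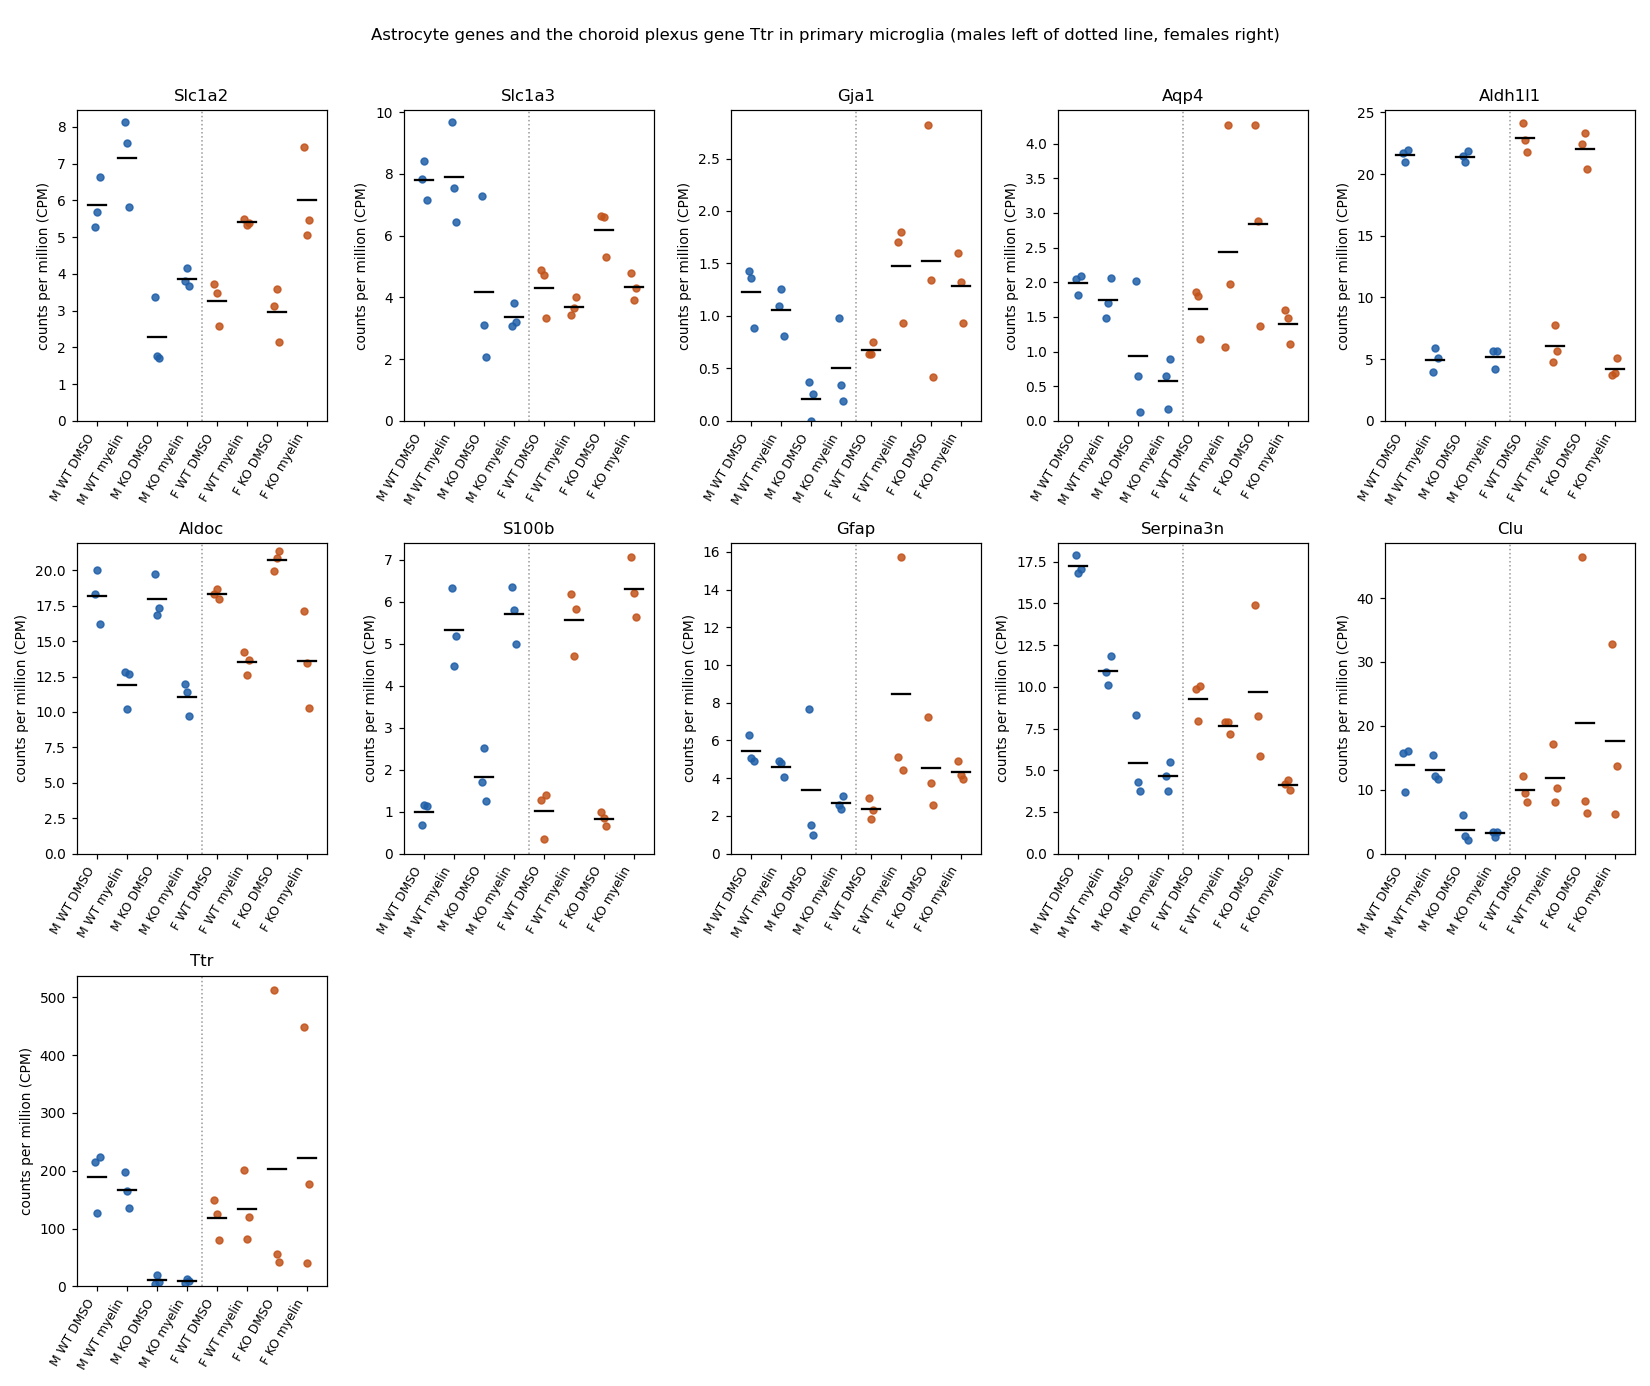
CPM (vertical axes, starting at 0) of the 10 members and the choroid plexus gene Ttr in every primary microglia library, by group, males left of the dotted line and females right of it; each point is 1 library and the bar is the group mean. Aldh1l1 and Aldoc lie lower and S100b higher with myelin in all 4 sex and genotype combinations, and Ttr lies at 3.74 to 20.1 CPM in male KO libraries against 127 to 223 CPM in male WT libraries.

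Choroid plexus RNA moved with genotype in the male cultures. Ttr, the transthyretin gene that choroid plexus cells express most, was at 216, 127 and 223 CPM in male WT DMSO libraries and 3.74, 20.1 and 6.69 CPM in male KO. It was lower in KO at -4.10 ± 1.09 (adjusted p = 0.0117) with DMSO and at -4.06 ± 1.09 (adjusted p = 0.0126) with myelin. In female libraries Ttr ran from 80.7 to 202 CPM in WT and from 40.4 to 512 CPM in KO, overlapping. The 7 choroid plexus markers summed to 171 to 313 CPM in male WT and 8.3 to 31.7 CPM in male KO. Ttr did not overlap between KO and WT males in either treatment, so as a covariate it is hard to separate from genotype there. A call lost with it says little about either. With Ttr as a covariate, an alternative chosen after seeing the data, 2 members, Slc1a2 and S100b, were called in males with DMSO and 0 with myelin. Slc1a3 was then at -0.80 (adjusted p = 0.386), Serpina3n at -1.12 (adjusted p = 0.162) and Gja1 at -1.65 (adjusted p = 0.300) with DMSO. With myelin Slc1a3 was at -1.16 (adjusted p = 0.131), close to its value without the covariate, Slc1a2 at -0.54 (adjusted p = 0.280) and Serpina3n at -0.75 (adjusted p = 0.345). Clu, which edgeR did not call with or without the covariate, had the opposite sign with it, at 1.03 in DMSO cultures (adjusted p = 0.349) and 0.69 in myelin cultures (adjusted p = 0.552). Of the 23 other homeostatic astrocyte genes tested in the cultures, 10 were lower and 2 higher in male KO with DMSO (median -0.89, beside 20.9% of all genes called in either direction), and 9 lower and 1 higher with myelin (median -0.65, beside 20.6%). In female KO 6 were higher and 1 lower with DMSO (median 0.42, beside 11.9%), and 3 higher and 1 lower with myelin (median 0.31, beside 7.28%). Whether the effect of genotype differed by sex was not tested.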

How the data were processed

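The count tables are whole-number read counts per gene deposited by the authors, made from QuantSeq 3′ libraries per the labels' protocols. The submitters' processing notes name the builds GRCm38 and mm10 and DESeq2 1.38.3. Not given in the sources used here were the aligner, the counter and the use of strand. Counts were tested in R 4.3.3 with edgeR 4.0.16 (TMM, filterByExpr, robust quasi-likelihood test), 3 experiments fitted separately, with sex and treatment groups, and Benjamini-Hochberg adjustment over all genes tested (17218 agonist, 17128 inhibitor, 14468 microglia). Called means an adjusted p under 0.05. Standard errors are the log2 fold change divided by the square root of F. DESeq2 1.42.0 and limma-voom (limma 3.58.1) were alternatives, with other normalizations, no filter, covariates and left-out libraries. Scripts were tested on simulated data. CPM values are counts divided by library totals, 14332532 to 23477906 over the 69 libraries. The named genes were the 10 members, at most 4 called genes in each direction per list, and the 5 genes most like Gfap, Serpina3n and Slc1a2, of which 1 is not reported here. The members and lists were chosen with earlier results of these data known. Promoters came from RefSeq.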

Additional observations from a re-analysis of the deposited data

Results flagged for a closer look

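For Gfap in WT microglial cultures, the myelin and DMSO libraries separated in opposite order in the 2 sexes. In male WT the log2 fold change was -0.17 ± 0.57 (± SE, edgeR adjusted p = 0.859, not called), with every myelin library (4.91, 4.78 and 4.06 CPM) below every DMSO library (6.28, 5.05 and 4.93 CPM), and in female WT it was 1.87, with every myelin library above every DMSO library. The nearest male values were 4.91 CPM with myelin and 4.93 CPM with DMSO. Of all genes tested, 49.3% in male WT and 49.6% in female WT also did not overlap. The difference between the sexes was not tested. The female value rests in large part on the second myelin library, at 15.7 CPM, without which it was 1.05 and not called (adjusted p = 0.184). Of the 80 pairs of effects compared in this way, this was the 1 with fully opposite groups, and the check for a library standing apart covered the 60 pairs of a member with a hippocampal group of 5 to 7 libraries, where none was found, and no group of 3.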

How the results depend on the processing

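No result of a member reversed its direction past the test under any alternative run. In the agonist experiment 1408 of the members' values under alternatives kept their side of the threshold and 2 crossed into being called, in the inhibitor experiment 1164 kept it and 16 crossed into being called, and in the microglia 1147 kept it, 26 crossed into being called and 26 out of it. The cause of each change below was not tested. In hippocampus the members rest on many counts and the spread between libraries limits them, while Gja1 and Aqp4 in microglia rest on few counts.

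For gardiquimod in males, 38 genes were called, against 69 with upper-quartile scaling, 262 with DESeq2 (1 of them a member), 19 with only the groups compared, 3 with Ttr as a covariate and 15 with the mitochondrial share as one. For gardiquimod in females, 4 genes were called, against 2 with upper-quartile scaling, 16 with DESeq2, 1 with no filter on low counts and 0 with the mitochondrial share. For the difference between female and male responses to gardiquimod, 1 gene was called, against 6 with upper-quartile scaling, 153 with DESeq2, 2 with limma-voom, 9 with no filter, 2 with Ttr and 0 with the mitochondrial share. For saline females against saline males, 74 were called and 122 with DESeq2.

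For the inhibitor in males, 18 genes were called, against 184 with DESeq2, 3 with limma-voom, 329 with only the groups compared, 8 with Ttr, 89 with the mitochondrial share (1 of them a member), 8 with the youngest libraries only, 7 with libraries of at least 5% mitochondrial counts and 2 with male libraries free of Xist. For the inhibitor in females, 15 were called, against 9 with upper-quartile scaling, 161 with DESeq2, 0 with only the groups compared, 0 with Ttr, 1081 with the mitochondrial share (2 of them members), 8 with age as a covariate, 0 with the youngest libraries and 1 with at least 5%. For the average over sexes, 2 were called, against 4 with DESeq2, 0 with Ttr, 4 with the mitochondrial share, 0 with the youngest and 1 with male libraries free of Xist. For the difference between female and male responses to the inhibitor, 413 were called, against 1606 with DESeq2 (1 of them a member), 273 with no filter, 1 with Ttr, 1729 with the mitochondrial share (4 of them members), 0 with the youngest, 86 with at least 5% and 48 with male libraries free of Xist. For control females against control males, 11 were called, against 40 with DESeq2, 5 with only the groups compared, 5 with Ttr, 145 with the mitochondrial share, 4 with the youngest and 5 with at least 5%.

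For KO against WT in males with DMSO, 3027 genes and 5 members were called, against 1121 genes and 2 members with Ttr. In females with DMSO 0 members were called, against 2 with no filter and 1 with only the groups compared. In males with myelin, 2987 genes and 3 members were called, against 5 members with DESeq2, 6 with only the groups compared, and 1248 genes and 0 members with Ttr. In females with myelin 1 member was called, against 2 with DESeq2 and 0 with limma-voom.

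With 1 library left out at a time, the genes called ranged from 7 to 329 for gardiquimod in males (members 0 to 1), 0 to 10 in females, 29 to 44 for the average of the sexes, 1 to 35 for the difference between the sexes and 47 to 84 for saline females against males. They ranged from 1 to 18 for the inhibitor in males, 0 to 93 in females, 1 to 4 for the average, 25 to 2500 for the difference between the sexes (members 0 to 6) and 6 to 23 for control females against males. Members called for KO against WT ranged from 3 to 7 in males with DMSO, 0 to 1 in females with DMSO, 3 to 4 in males with myelin and 0 to 1 in females with myelin, and for myelin in female WT from 4 to 5.

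The labels do not say whether microglial libraries of the same number belong together. Over 84 pairs with the same number, correlations of deviations from the group means ran from -0.0951 to 0.483, 13 of them over 0.1. Over 168 pairs with different numbers they ran from -0.443 to 0.307, 4 of them over 0.1. Of 24 libraries, 18 correlated best with their own number. By these counts libraries of the same number were more often alike, and a pairing by number was not excluded. The main fit had no replicate block, so its p-values do not take such a pairing into account. With the number as a replicate block, members called were 3 and 6 for myelin in WT males and WT females, 4 and 5 in KO males and KO females, and 6, 0, 4 and 1 for KO against WT in males and females with DMSO and in males and females with myelin. Genes called under the block were 5749, 5894, 5590 and 6024 for myelin and 3186, 1830, 3132 and 1139 for KO against WT. For hippocampus no paired analysis was possible, because a library's number says only where it stands among the samples.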
